A study of Mus musculus with 12 samples.

Results

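The TGF-beta and BMP pathway was described here through 48 genes, picked by symbol from the known parts of the pathway. The pick was made with earlier results of these data known. Each symbol occurred in 1 row of the table of 55487 genes. The members comprised 5 TGF-beta and activin ligands, 8 BMP and GDF ligands, 12 receptors, 6 secreted antagonists, 4 latent TGF-beta binding proteins, 9 Smad genes and Smad partners, and 4 Id genes. RNA had been sequenced from mouse 3T3-L1 fibroblasts, which turn into adipocyte-like cells after hormonal induction. The cells stably expressed a scrambled control hairpin (shScram) or one directed at Fto (shFto), the gene of an RNA m6A demethylase, from a lentiviral vector under puromycin selection. They were taken as preadipocytes (Pre), at mitotic clonal expansion (MCE) and after differentiation (Diff), with 2 libraries in each of the 6 groups. Which of the listed Fto hairpins was sequenced is not given in the sources used here. It is also not stated that shFto or shScram stood for more than 1 selected line, so that knockdown and line cannot be told apart. Nothing says that the libraries of a group came from separate cultures, so the p-values below measure the spread between these libraries, which may be technical.

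Ligands of this family bind paired type I and type II receptor kinases, and the activated type I receptor phosphorylates receptor Smads, which enter the nucleus with Smad4. TGF-beta and activin use Smad2 and Smad3, whereas BMPs use Smad1, Smad5 and Smad9 and turn on the Id genes. TGF-beta is secreted in a latent form that latent TGF-beta binding proteins hold in the matrix, follistatin traps activin, and gremlin and chordin trap BMPs. In preadipocytes TGF-beta is known as an inhibitor of adipogenesis, while BMP signals are known to favour commitment to the fat lineage.

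Levels are given as TPM, a share of all transcripts that corrects for gene length but fixes all libraries to one total and so hides the sequencing depth. Pairs of TPM values are replicate 1 followed by replicate 2, and sets of 3 pairs run from Pre through MCE to Diff. Folds are ratios of mean TPM, and log2 fold changes are differences of log2(TPM + 1) with the standard error (SE) of limma, a scale that understates changes of low genes. A gene was called when its Benjamini-Hochberg adjusted p was under 0.05 over the 15968 genes with at least 1 TPM in at least 2 libraries. Of the members 39 passed that filter, 3 of them through shFto libraries alone (Inhbb, Gdf15 and Bambi) and 1 through shScram libraries alone (Smad9). The other 9 members, Bmp2, Bmp4, Bmp6, Bmp7, Gdf6, Gdf10, Bmpr1b, Fstl3 and Nog, stayed at or below 0.443 TPM in every library and were not tested.

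Fto itself was at 5.51 to 7.47 TPM in the shFto libraries and at 52.7 to 73.5 TPM in the shScram libraries, so the libraries matched their hairpin labels. Fto was not called between stages in either line and is no check on the stage labels. The treatment entry of shScram replicate 1 at Diff names the knockdown, but its Fto level of 73.5 TPM lay with the controls, and its title was followed. The shScram Pre libraries correlated less (Pearson r 0.939 across genes) than those of the other groups (0.990 to 0.993), and their difference touches many members below. The 5 endothelial and 4 epithelial markers stayed under 1 TPM each and 5 of 6 macrophage markers under 3 TPM, with 1 endothelial, 1 epithelial and 2 macrophage markers at 0 in every library. The 8 adipocyte markers summed to 1524 and 1515 TPM in the shScram libraries at Diff and to 456 and 417 TPM in the shFto libraries. At MCE the sums were 376 and 374 TPM against 266 and 274 TPM. In Pre the order was opposite, 192 and 133 TPM against 268 and 299.5 TPM, of which Lpl made up 174 and 112 TPM against 247 and 281 TPM, and the median log2 fold change of the 8 genes was -0.0071 with Lpl alone called. The fibroblast sums were lower for shFto than for shScram libraries without overlap at each stage, at 5160.3 to 7692 TPM against 7078 to 10312 TPM over the stages. That order follows Vim and S100a4, which were called lower at each stage, whereas Thy1 was called higher at each stage and the median log2 fold change of the 8 genes was -0.24, 0.59 and 0.28. The part of these marker differences in the member values was not tested, and in these bulk samples fewer cells of a type and less RNA per cell cannot be told apart.

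Comparing shFto with shScram cells at each stage asks which parts of the pathway changed with the loss of Fto. More members were higher than lower at all 3 stages. In Pre 17 of the 39 tested members were higher and 7 lower, at MCE 16 were higher and 4 lower, and at Diff 15 were higher and 5 lower. The higher members include Inhbb at each stage and Gdf15 in Pre, and the lower ones Smad9 in Pre, which were tested only because of the line in which they are higher. Among all genes tested 15.9% were called higher and 12.3% lower in Pre, 10.5% and 7.26% at MCE, and 11.9% and 9.31% at Diff, so that 28.2%, 17.8% and 21.2% were called in either direction. The counts by class below stand against those shares. Since the members were chosen with earlier results of these data known, an excess over the shares is a description and no test of the pathway. The median log2 fold change of the tested members was 0.31, 0.32 and 0.39 at the successive stages, against 0.08, 0.05 and 0.03 over all genes tested. A fit without shScram Pre replicate 1 called more members at each stage, but the share of all genes called in it is not given. That fit leaves 1 library in shScram Pre, so the spread of that group no longer enters, and being called in it is no check on a result. The called Pre log2 fold changes that shrank by over 1.5 times without that library were those of Acvr1b (0.75), Chrd (0.82), Ltbp2 (0.97), Ltbp4 (1.27), Smad6 (1.12) and Smad7 (1.16).

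These 3 comparisons contrast separate libraries of cells labelled shScram and shFto, but their p-values share the spread of all 12 libraries. Calls at several stages are therefore not independent repeats. The members called higher at every stage were Tgfb1, Inhba, Inhbb, Gdf11, Acvrl1, Ltbp3, Ltbp4 and Skil, 8 of 39 (20.5%), against 3.41% of all genes tested, and Inhbb is among them through shFto libraries alone. Tgfbr3, Fst and Id4 were called lower at every stage, 3 of 39 (7.69%), against 1.99% of all genes tested. The Pre calls need the spread of the other groups. A limma fit on the 4 Pre libraries alone called 0 members and 0 genes at the adjusted threshold, with 21 members and 2790 genes at an unadjusted p under 0.05. Leaving out shFto Pre replicate 1 or 2 reduced the Pre count to 14 or 15, and leaving out shFto MCE replicate 1 or 2 reduced the MCE count to 13 each.

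**Figure D1:**
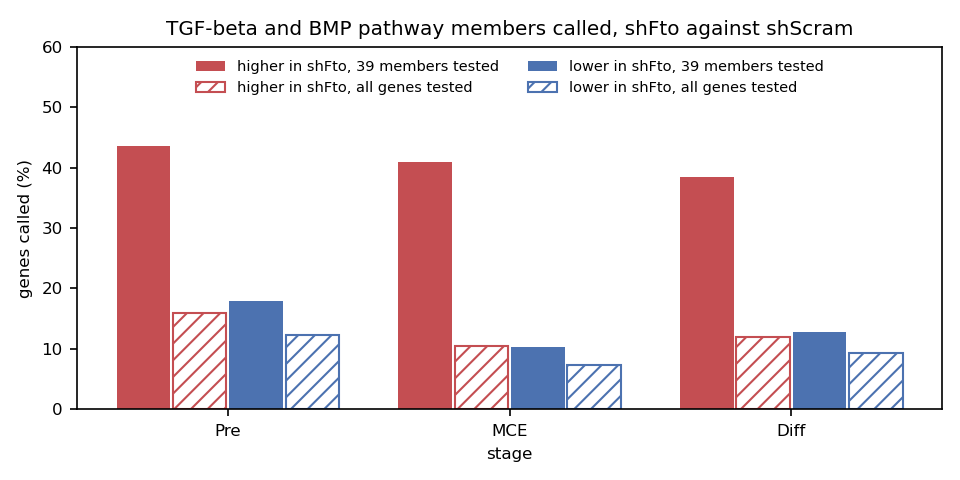
Share of genes called higher (red) or lower (blue) in shFto than in shScram cells at each stage, in percent, for the 39 tested members (filled) and all 15968 genes tested (hatched). The bars of higher members stand at 17, 16 and 15 of 39, above those of all genes at each stage.

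**Figure D2:**
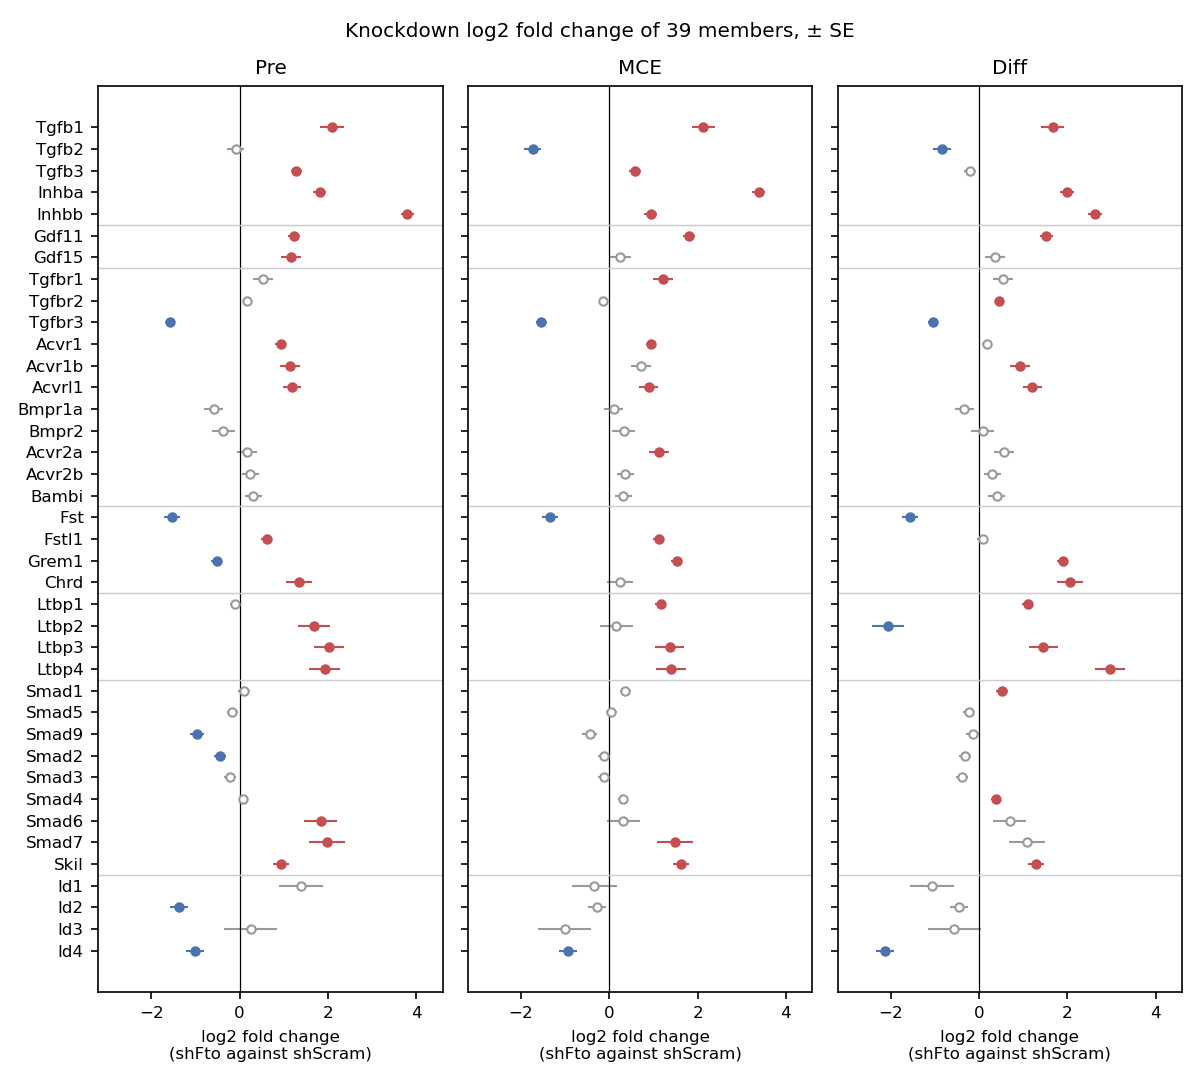
Log2 fold change of each tested member (points, with bars of ± 1 SE from limma) between shFto and shScram cells in Pre, at MCE and at Diff, ordered by class with grey lines between classes. Filled red and blue points were called higher and lower, and open grey points were not called; ligands and latent binding proteins lie mostly to the right, and Tgfbr3, Fst and Id4 lie to the left at each stage.

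Among the TGF-beta and activin ligands, 4 of 5 were called higher in shFto cells in Pre, 4 at MCE and 3 at Diff, and Tgfb2 was the member that went down at MCE and Diff. Tgfb1 was at 7.69 and 16 TPM in shScram Pre, 13.9 and 16.4 at MCE and 13.7 and 13.8 at Diff. The shFto libraries held 48.6 and 52.9 TPM, 66.6 and 72.3 TPM and 42.7 and 49.4 TPM. Every shFto library thus lay above every shScram library of its stage, by 4.28-fold, 4.58-fold and 3.35-fold in the mean (log2 fold change 2.13 ± 0.26 SE at MCE, limma adjusted p = 0.000845). Between stages Tgfb1 was not called in either line.

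Tgfb2, the isoform that relies most on betaglycan for receptor binding, was at 12.7 and 10.5 TPM, 12.4 and 10.8 TPM and 11.4 and 13.4 TPM in shScram cells through Pre, MCE and Diff. The shFto libraries held 9.01 and 12.9 TPM in Pre, 3.18 and 2.41 TPM at MCE and 6.42 and 6.55 TPM at Diff. The lines overlapped in Pre and were apart afterwards, with a 4.15-fold lower mean in shFto cells at MCE (log2 fold change -1.74 ± 0.20, limma adjusted p = 0.000536) and a 1.91-fold lower one at Diff (adjusted p = 0.0178, lost when any Diff library was left out). Tgfb3 was at 20.3 and 24.9 TPM, 13.9 and 12.6 TPM and 23 and 25.5 TPM in shScram cells and at 56.3 and 56.3 TPM, 19.2 and 21.3 TPM and 21 and 20.8 TPM in shFto cells. It was higher in shFto cells in Pre (2.49-fold, limma adjusted p = 0.000528) and at MCE (1.52-fold, adjusted p = 0.0196, lost when any MCE library was left out), and at Diff both shFto libraries lay just below the controls without a call. Tgfb3 overlaps Ttll5 on the opposite strand, and since the counting is not stated to use strand its values are uncertain.

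Inhba encodes the subunit of activin A and Inhbb that of activin B. Inhba, on chromosome 13 of GRCm38, was at 6.25 and 5.63 TPM in shScram Pre, 2.56 and 2.97 at MCE and 2.94 and 2.44 at Diff. In shFto cells it stood at 22 and 24.9 TPM, 35.2 and 41.3 TPM and 13.5 and 13.8 TPM. The shFto libraries were higher without overlap at each stage, 3.95-fold in Pre, 13.8-fold at MCE and 5.09-fold at Diff, and the MCE value was the highest knockdown log2 fold change of any member at that stage (3.38 ± 0.15 SE, limma adjusted p = 3.59e-06). Inhba overlaps the antisense gene B230303A05Rik, which leaves its counts uncertain in the same way. The same holds for Tgfb2, Tgfbr3, Acvr1, Acvrl1, Bmpr1a, Acvr2b, Fst, Ltbp2, Smad4 and Id4, which also overlap a gene on the opposite strand.

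Inhbb was listed at 0 in 4 of the 6 shScram libraries and at no more than 0.0348 TPM in the others. The shFto libraries held 12 and 14.2 TPM in Pre, 0.893 and 0.94 TPM at MCE and 5.62 and 4.96 TPM at Diff. Inhbb was therefore seen in the shFto line at every stage, at a much lower level at MCE than on either side of it, and no fold is given against groups at or near 0. On the log2(TPM + 1) scale the differences were 3.80, 0.94 and 2.63. Inhbb passed the filter through shFto libraries alone, so these values and its calls are a description and no p is given for them. Across the stages the activin genes of shFto cells ran in opposite ways, Inhba being highest and Inhbb lowest at MCE.

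The promoters of both activin genes are shown because these genes gave the highest knockdown log2 fold changes among the members, Inhbb in Pre and Inhba at MCE. Each is the RefSeq window from 250 bases before to 50 bases after the start, 5′ to 3′ on the gene's strand, on GRCm38.p6 at chr13:16011601-16011900 (plus strand) for Inhba and chr1:119422199-119422498 (minus strand) for Inhbb. Capitals here and in the promoters below mark the letters CAGAC (or GTCTG), GTCTAGAC and GGCGCC, searched on both strands as letters that Smad proteins are known to bind. Of all 32851 promoter windows 49.6% held CAGAC, 0.213% held the palindrome GTCTAGAC, which contains no CAGAC, and 11.9% held GGCGCC.
Inhba promoter: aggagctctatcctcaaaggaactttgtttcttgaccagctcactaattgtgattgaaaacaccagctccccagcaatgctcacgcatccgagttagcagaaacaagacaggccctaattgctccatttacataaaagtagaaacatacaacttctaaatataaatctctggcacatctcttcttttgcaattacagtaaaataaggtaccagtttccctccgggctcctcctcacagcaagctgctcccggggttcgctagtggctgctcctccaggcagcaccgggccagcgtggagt
Inhbb promoter: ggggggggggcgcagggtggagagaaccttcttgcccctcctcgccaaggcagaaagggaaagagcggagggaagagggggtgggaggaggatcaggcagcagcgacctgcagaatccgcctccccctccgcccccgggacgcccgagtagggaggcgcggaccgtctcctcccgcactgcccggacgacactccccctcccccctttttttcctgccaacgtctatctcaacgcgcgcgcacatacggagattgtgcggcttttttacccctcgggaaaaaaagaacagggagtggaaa
Neither window held any of these strings. Inhbb has 64.3% G and C in this window, and Inhba 47.7%. RefSeq windows were matched for 34 of the 48 members, in 43 windows, of which 20 held CAGAC, 14 GGCGCC and 1 the palindrome.

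Of the 8 BMP and GDF ligands only Gdf11 and Gdf15 passed the filter, and Bmp7 was listed at 0 in every library. Gdf11, an activin-like ligand that signals through Smad2 and Smad3, was at 7.4 and 9.9 TPM, 8.48 and 8.85 TPM and 11.3 and 11 TPM in shScram cells through the stages. The shFto libraries held 21.4 and 21.6 TPM, 33.4 and 32 TPM and 34 and 34.1 TPM. Gdf11 was thus higher in shFto cells at every stage, 2.49-fold, 3.78-fold and 3.06-fold, with no overlap (log2 fold change 1.80 ± 0.14 SE at MCE, limma adjusted p = 7.38e-05). Gdf15, a stress-induced relative with a receptor of its own in the brain, did not exceed 0.421 TPM in shScram cells and was at 2.13 and 1.16 TPM in shFto Pre, a log2 fold change of 1.16 that is a description only, since these libraries admitted it to the test. At MCE and Diff no call was made. The classical BMP ligands of the list were hence near 0 in these cells, and no difference between the lines was detectable for them.

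**Figure D3:**
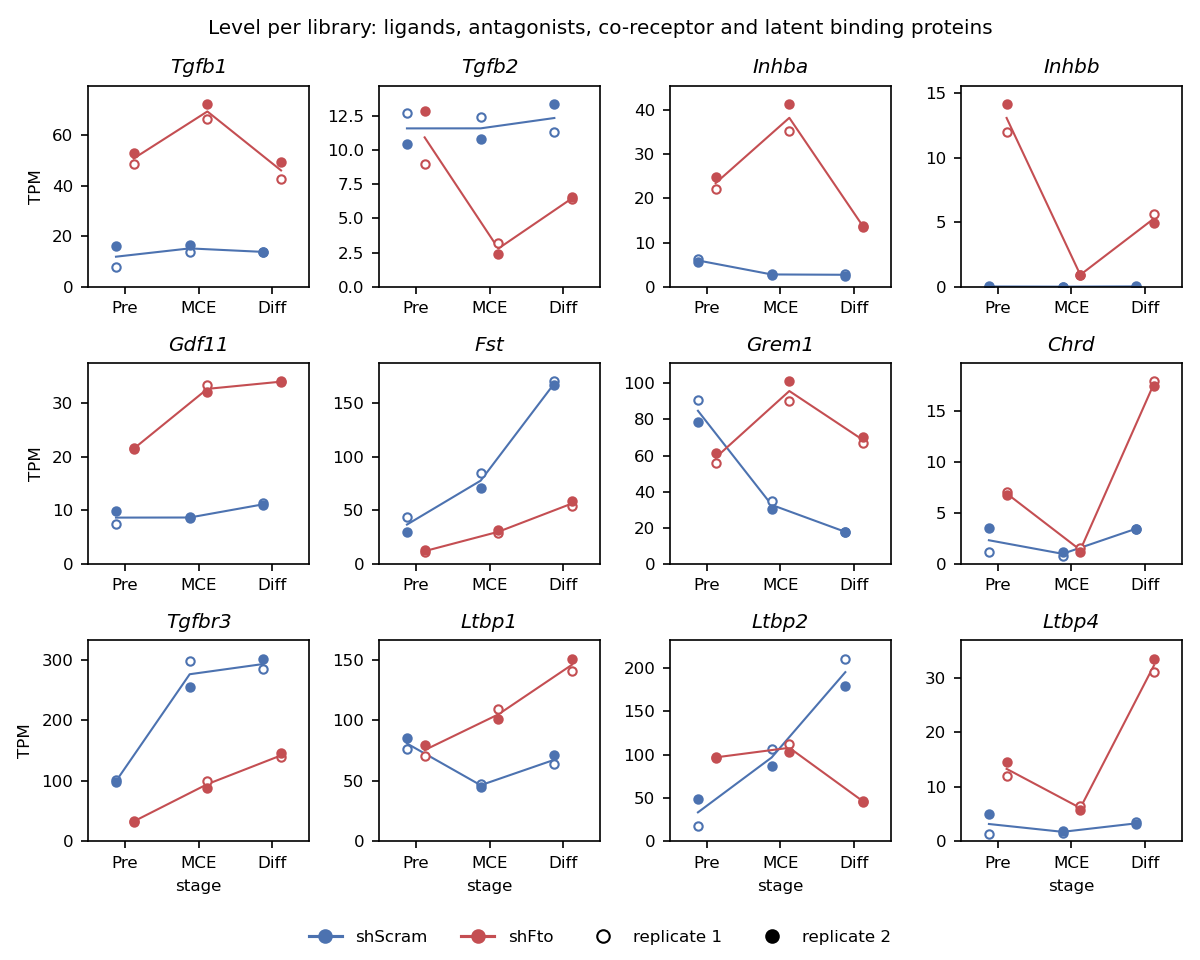
TPM of 12 secreted or surface members in each library, with replicate 1 as open and replicate 2 as filled circles, shScram in blue, shFto in red and lines through the group means, over the stages Pre, MCE and Diff. Tgfb1, Inhba, Inhbb, Gdf11 and Ltbp4 lie higher in shFto cells at each stage, Fst and Tgfbr3 lie lower, and Grem1 and Ltbp2 change their order between stages.

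Of the receptor genes tested 3 were higher and 1 was lower in shFto cells in Pre, 4 and 1 at MCE, and 3 and 1 at Diff, of 11 in all, where 28.2%, 17.8% and 21.2% of all genes tested were called. Tgfbr3, or betaglycan, the co-receptor that presents TGF-beta, was the receptor with the highest TPM. It was at 101 and 97 TPM, 297 and 254 TPM and 284 and 301 TPM in the shScram line and 31.4 and 33.5 TPM, 100.0 and 88.2 TPM and 138 and 145 TPM in shFto cells. All shFto libraries lay below the shScram libraries of their stage, 3.05-fold, 2.93-fold and 2.07-fold in the mean (log2 fold change -1.54 ± 0.12 SE at MCE, limma adjusted p = 7.54e-05). The calls at the 3 stages held whichever library was left out.

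The signalling type I receptors went up where they were called. Tgfbr1, the TGF-beta type I receptor, was at 17.3 and 10.1 TPM, 19.8 and 19.1 TPM and 18.8 and 21.7 TPM in shScram cells and 17.2 and 22.3 TPM, 47.3 and 45.9 TPM and 29.3 and 30.6 TPM in shFto cells. It was called at MCE (2.39-fold higher, limma adjusted p = 0.00602). Tgfbr1 overlapped between the lines in Pre and was 1.48-fold higher in the shFto mean at Diff without a call (adjusted p = 0.122). Acvr1, a BMP type I receptor, was at 25.1 and 27.4 TPM, 29.6 and 25.5 TPM and 36.8 and 39.2 TPM in shScram cells against 48.5 and 53.3 TPM, 53.8 and 53.6 TPM and 42.9 and 43.3 TPM in shFto cells. The lines did not overlap at any stage. Acvr1 was 1.94-fold and 1.95-fold higher in Pre and at MCE (limma adjusted p = 0.00133 and 0.000899) and 1.13-fold higher at Diff without a call, and the change of the effect from MCE to Diff was not called either (adjusted p = 0.0536).

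Acvr1b, the activin type I receptor, was at 4.8 and 8.88 TPM, 18.7 and 17.2 TPM and 18.5 and 17 TPM in shScram cells. In shFto cells it was at 14.9 and 16.4 TPM, 31.8 and 28.3 TPM and 32.3 and 37.3 TPM. It was higher in all shFto libraries, with calls in Pre (2.28-fold, limma adjusted p = 0.00925) and at Diff (1.96-fold, adjusted p = 0.0185) and with an adjusted p of 0.0601 at MCE. The Pre call was lost without either shFto Pre library and the Diff call when any Diff library was left out. Acvrl1, known as an endothelial type I receptor, was at 2.42 and 3.99 TPM, 0.707 and 0.751 TPM and 2.27 and 3.21 TPM in the shScram line and 8.81 and 7.99 TPM, 2.33 and 2.1 TPM and 8.33 and 6.88 TPM in shFto cells. Its means were 2.62-fold, 3.04-fold and 2.77-fold higher in shFto cells (limma adjusted p = 0.00623, 0.0206 and 0.0043), although the 5 endothelial markers were under 1 TPM throughout. The call in Pre was lost without shFto Pre replicate 1, and that at MCE when any MCE library was left out.

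Of the type II receptors, Tgfbr2 was at 38.4 and 39.1 TPM, 85.9 and 81.7 TPM and 74.2 and 75.5 TPM in shScram cells and 42.9 and 44.6 TPM, 78.3 and 73.4 TPM and 100.0 and 107 TPM in shFto cells. A call was made at Diff alone (1.38-fold higher, limma adjusted p = 0.0124), and it was lost when any Diff library was left out. Acvr2a, an activin type II receptor, stood at 68.9 and 40.7 TPM, 23 and 18.3 TPM and 35.1 and 39.3 TPM against 54.2 and 66.1 TPM, 46 and 45.4 TPM and 54.4 and 56.2 TPM. It was called at MCE (2.21-fold higher, adjusted p = 0.01; not without shScram MCE replicate 2 or either shFto MCE library). Acvr2a overlaps Orc4 on the opposite strand and is uncertain. The BMP receptors Bmpr1a (33.9 to 69.8 TPM) and Bmpr2 (10.7 to 23.4 TPM), the activin receptor Acvr2b (1.36 to 4.56 TPM) and the decoy receptor Bambi (0.338 to 1.52 TPM) were not called in any comparison.

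The secreted antagonists went in different directions. Fst, or follistatin, which traps activin, was at 43.4 and 30.1 TPM, 84.8 and 70.8 TPM and 171 and 167 TPM in shScram cells. In shFto cells it was at 10.9 and 12.8 TPM, 28.4 and 31.6 TPM and 54.4 and 58.5 TPM. Fst was lower in every shFto library, by 3.09-fold, 2.59-fold and 2.99-fold in the mean (log2 fold change -1.56 ± 0.18 SE at Diff, limma adjusted p = 0.000431), and it rose from stage to stage in both lines. Inhba and Inhbb, the latter tested only because of shFto libraries, were thus higher at each stage in the line in which Fst was lower. Inha, the inhibin alpha gene, is from the list of other components and was named after its values were seen. It was at 1.39 and 6.93 TPM, 4.31 and 4.66 TPM and 10.4 and 8.96 TPM in shScram cells. The shFto libraries held 8.67 and 7.63 TPM, 8.51 and 6.66 TPM and 15.7 and 19.3 TPM. Activin itself was not measured, and what these levels mean for it was not tested.

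Grem1, or gremlin, a trap for BMPs, was at 91 and 78.6 TPM in shScram Pre, 34.7 and 30.6 at MCE and 17.7 and 17.8 at Diff. The shFto libraries held 56.1 and 61.6 TPM, 90.4 and 101 TPM and 66.8 and 70.4 TPM. The order of the lines turned over without overlap at any stage, with Grem1 1.44-fold lower in shFto cells in Pre (limma adjusted p = 0.0193, lost without either shFto Pre library), 2.93-fold higher at MCE (adjusted p = 9.73e-05) and 3.87-fold higher at Diff (adjusted p = 2.11e-05). Chrd, or chordin, another BMP trap, was at 1.16 and 3.47 TPM, 0.793 and 1.17 TPM and 3.46 and 3.44 TPM in the shScram line and 7.06 and 6.73 TPM, 1.52 and 1.19 TPM and 17.9 and 17.4 TPM in shFto cells. It was 2.98-fold higher in Pre (adjusted p = 0.0129, lost without either shFto Pre library) and 5.12-fold higher at Diff (adjusted p = 0.00132), with both lines low at MCE. Chrd overlaps Thpo on the opposite strand and is uncertain. Fstl1, a secreted follistatin-like protein, had the highest TPM of all members, at 651 and 621 TPM, 1203 and 1052 TPM and 1301 and 1233 TPM in the shScram line and 918 and 1032 TPM, 2470.2 and 2422 TPM and 1330.1 and 1356 TPM in shFto cells. It was higher in shFto cells in Pre (1.53-fold, limma adjusted p = 0.0114, lost without shFto Pre replicate 2) and at MCE (2.17-fold, adjusted p = 0.000536), and at Diff the means differed by 1.06-fold with no call.

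Of the 4 latent TGF-beta binding proteins 3 were called higher in shFto cells at each stage, though not the same 3. They were Ltbp2, Ltbp3 and Ltbp4 in Pre and Ltbp1, Ltbp3 and Ltbp4 at MCE and Diff, and Ltbp2 was called lower at Diff. Ltbp3 was at 35.3 and 91.3 TPM, 97.6 and 95.1 TPM and 88.1 and 89.7 TPM in the shScram line and 241 and 228 TPM, 246 and 254 TPM and 242 and 249 TPM in shFto cells. The shFto libraries were 3.71-fold, 2.6-fold and 2.76-fold higher in the mean (limma adjusted p = 0.00428, 0.0222 and 0.0146), and the MCE and Diff calls were lost when any library of the stage was left out. The shScram Pre pair of Ltbp3 was the widest of its pairs, and the values of Ltbp3 are uncertain in the way given for Tgfb3. Ltbp4 was at 1.39 and 4.89 TPM, 1.5 and 1.9 TPM and 3.47 and 3.05 TPM in the shScram line and 12 and 14.5 TPM, 6.41 and 5.76 TPM and 31.1 and 33.5 TPM in shFto cells. Its shFto libraries lay above the controls at each stage, 9.9-fold at Diff (log2 fold change 2.97 ± 0.35 SE, limma adjusted p = 0.000464), and the MCE call (adjusted p = 0.0239) was lost when any MCE library was left out.

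Ltbp1 was at 76.2 and 85.5 TPM, 47.7 and 44.9 TPM and 63.8 and 70.9 TPM in shScram cells. The shFto values were 70.9 and 79.9 TPM, 109 and 101 TPM and 141 and 151 TPM. The lines overlapped in Pre, and shFto cells were 2.27-fold higher at MCE and 2.17-fold higher at Diff (limma adjusted p = 0.00032 and 0.00034). Ltbp2, which unlike its relatives is not known to hold latent TGF-beta, was at 17.5 and 48.9 TPM, 106 and 86.9 TPM and 211 and 179.7 TPM in the shScram line and 96 and 97.4 TPM, 113 and 103 TPM and 45.3 and 46.5 TPM in shFto cells. The order of the lines reversed, from 2.91-fold higher in shFto Pre (adjusted p = 0.0126, lost without either shFto Pre library) through overlap at MCE to 4.25-fold lower at Diff (adjusted p = 0.00423). The change of its knockdown effect from Pre to Diff was not tested directly, and from Pre to MCE and from MCE to Diff it was not called (adjusted p = 0.133 and 0.0639).

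Of the receptor Smads and Smad4, Smad2 and Smad9 were called in Pre and Smad1 and Smad4 at Diff, and at MCE there was no call. Smad1 (16.6 to 30.9 TPM), Smad5 (23.7 to 32.1 TPM) and Smad9 (0.212 to 1.56 TPM) carry BMP signals, and Smad2 (11.8 to 28.8 TPM) and Smad3 (25.5 to 53.7 TPM) carry those of TGF-beta and activin. Smad2 was at 27.8 and 28.8 TPM in the shScram line and 19.5 and 21.5 TPM in shFto Pre, a 1.38-fold lower mean (limma adjusted p = 0.0383) whose call was lost in 10 of the 12 fits that left out 1 library. At the later stages Smad2 was at 12.2 and 14.1 TPM and 15.4 and 18.2 TPM in the shScram line and 12.1 and 11.8 TPM and 13 and 13.6 TPM in shFto cells, with no call. Smad9 was under 2 TPM in both lines and passed the filter through shScram Pre alone, so its log2 fold change of -0.97 in Pre is a description only. Smad1 was at 16.6 and 19.9 TPM, 17.2 and 17.3 TPM and 19 and 20.6 TPM in the shScram line and 19.4 and 19.5 TPM, 22.9 and 22.1 TPM and 26.8 and 30.9 TPM in shFto cells, called higher at Diff (1.46-fold, adjusted p = 0.022, lost when any Diff library was left out). Smad4, the partner shared by both branches, was at 56.4 and 55.5 TPM, 46.6 and 42.4 TPM and 47.5 and 48.3 TPM in the shScram line and 56.1 and 63 TPM, 54.9 and 55.1 TPM and 61.9 and 64.5 TPM in shFto cells, and its call at Diff (1.32-fold higher, limma adjusted p = 0.0318) was lost in 6 of those 12 fits. Smad3 was at 31.4 and 38.7 TPM, 53.7 and 50.8 TPM and 37.3 and 35.8 TPM in the shScram line and 28.9 and 30.5 TPM, 48.5 and 47.9 TPM and 25.5 and 30.6 TPM in shFto cells. No knockdown call was made for Smad3, whose mean was lower in shFto cells at every stage, and none for Smad5.

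The inhibitory Smads and the corepressor Skil, which TGF-beta and BMP signals are known to induce as brakes on themselves, were called higher in shFto cells at every stage for Skil, in Pre and at MCE for Smad7, and in Pre for Smad6. Smad7 was at 1.75 and 7.46 TPM, 5.84 and 6.25 TPM and 3.43 and 2.73 TPM in the shScram line and 16.8 and 19.2 TPM, 19 and 18.7 TPM and 7.36 and 8.02 TPM in shFto cells. No shFto library of Smad7 overlapped the controls of its stage, with means 3.91-fold, 3.12-fold and 2.5-fold higher, but the adjusted p from limma was 0.011, 0.0362 and 0.0954. The shScram Pre libraries of Smad7 were far apart, at 1.75 and 7.46 TPM. Without shScram Pre replicate 1 the adjusted p at Diff was 8.35e-05. The Pre call was lost without either shFto Pre library, and the MCE call was lost in 10 of the 12 fits that left out 1 library.

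Smad6, the brake on the BMP branch, was at 2.3 and 7.8 TPM, 9.83 and 8.23 TPM and 5.14 and 4.06 TPM in the shScram line and 17 and 19.5 TPM, 11.1 and 11.8 TPM and 8.77 and 7.37 TPM in shFto cells. It was called higher in Pre (3.61-fold, limma adjusted p = 0.0102, lost without either shFto Pre library), and without shScram Pre replicate 1 the log2 fold change was 1.12 in place of 1.83. The later differences of 1.27-fold and 1.75-fold were not called, although the libraries did not overlap. Skil, also called SnoN, was at 14.6 and 10.3 TPM, 5.75 and 5.41 TPM and 4.19 and 5.05 TPM in the shScram line and 22.5 and 27.1 TPM, 19.1 and 19.7 TPM and 12.3 and 13.3 TPM in shFto cells. Skil was called higher at every stage, 1.98-fold, 3.47-fold and 2.77-fold (limma adjusted p = 0.00777, 0.000432 and 0.00121), and the Pre call was lost without shFto Pre replicate 2.

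The Smad6 promoter is printed because it was the only member window with the palindrome GTCTAGAC, the letters in capitals, and it lies on GRCm38.p6 at chr9:64022010-64022309 (minus strand).
Smad6 promoter: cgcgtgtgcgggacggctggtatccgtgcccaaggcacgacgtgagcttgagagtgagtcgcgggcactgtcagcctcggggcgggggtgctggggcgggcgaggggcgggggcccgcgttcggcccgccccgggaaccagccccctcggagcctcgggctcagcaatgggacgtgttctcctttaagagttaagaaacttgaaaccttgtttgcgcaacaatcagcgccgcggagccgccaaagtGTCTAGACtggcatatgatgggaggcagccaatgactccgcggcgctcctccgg
The match begins 4 bases before the start site. A match is a description of these letters and not a measured binding site, and no window was matched for Smad7, the other inhibitory Smad.

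**Figure D4:**
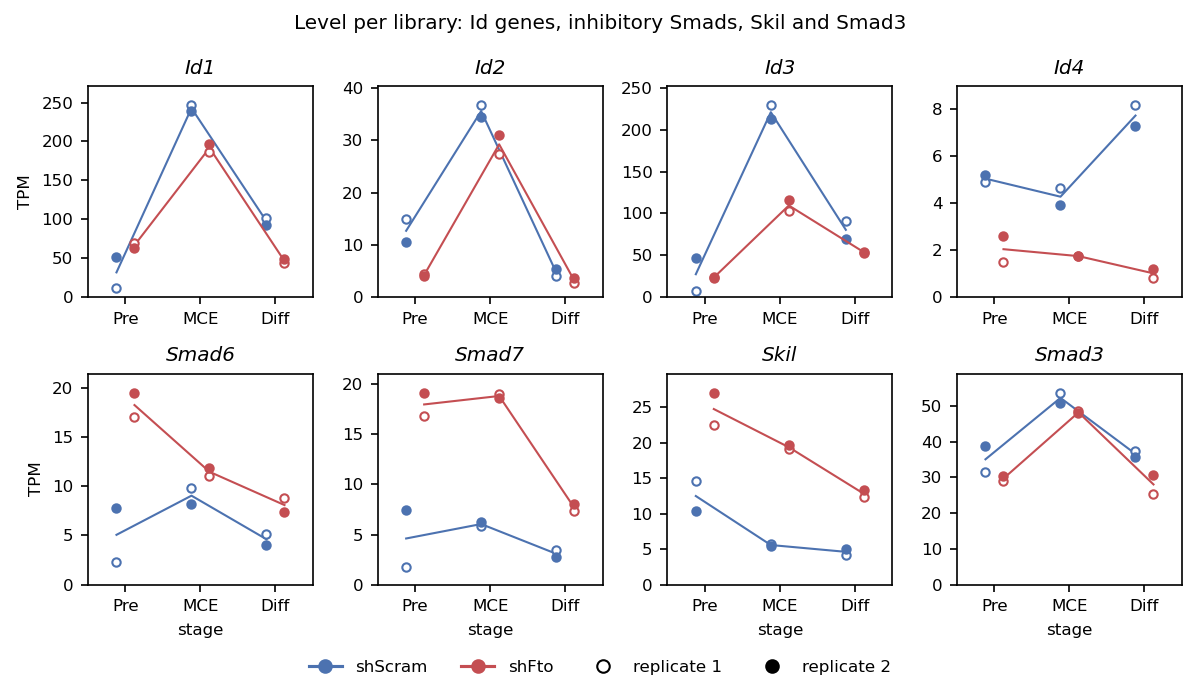
TPM of the Id genes, the inhibitory Smads, Skil and Smad3 in each library, with replicate 1 as open and replicate 2 as filled circles, shScram in blue, shFto in red and lines through the group means, over Pre, MCE and Diff. Id1, Id2 and Id3 peak at MCE in both lines, Id4 lies lower and Skil and Smad7 lie higher in shFto cells at each stage, and the shScram Pre pairs of Id1, Id3, Smad6 and Smad7 are far apart.

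The Id genes encode inhibitors of bHLH transcription factors and are textbook BMP targets. Of the 4 genes 2 were called lower in shFto cells in Pre and 1 each at MCE and Diff. Id4 was at 4.89 and 5.18 TPM, 4.62 and 3.91 TPM and 8.16 and 7.27 TPM in the shScram line and 1.48 and 2.58 TPM, 1.75 and 1.73 TPM and 0.808 and 1.2 TPM in shFto cells, 2.48-fold, 2.45-fold and 7.68-fold lower (log2 fold change -2.13 ± 0.20 SE at Diff, limma adjusted p = 0.000144). The Diff call held whichever library was left out, while the Pre call was lost without shFto Pre replicate 1 and the MCE call without shScram MCE replicate 1 or either shFto MCE library. Id2 was at 14.9 and 10.5 TPM, 36.8 and 34.5 TPM and 4.11 and 5.38 TPM in the shScram line and 4.36 and 4.06 TPM, 27.4 and 31.1 TPM and 2.67 and 3.74 TPM in shFto cells. It was 3.02-fold lower in shFto Pre (adjusted p = 0.00274) and not called later, though all shFto libraries lay below the controls.

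Id1 and Id3 had their highest TPM in shScram cells at MCE, and their Pre libraries of that line differed more than those of any other group. Id1 was at 11.5 and 51.8 TPM, 247 and 239 TPM and 101.6 and 93.1 TPM in the shScram line and 69.5 and 63.5 TPM, 186 and 197 TPM and 43.4 and 49 TPM in shFto cells. Id3 was at 7.72 and 46.7 TPM, 229 and 213 TPM and 91.2 and 69.4 TPM in the shScram line and 23.1 and 23.5 TPM, 103 and 116 TPM and 52.8 and 54.4 TPM in shFto cells. At MCE and Diff both genes were lower in every shFto library, with means 2.02-fold and 1.5-fold lower for Id3 and 1.27-fold and 2.11-fold lower for Id1, and none of these 4 values was called over the 12 libraries (limma adjusted p = 0.312, 0.565, 0.724 and 0.179). The shScram Pre libraries, far apart for both genes, enter neither comparison except through the shared spread, which they widen. In Pre the sign for Id3 depended on shScram Pre replicate 1, the log2 fold change being 0.25 with it (limma adjusted p = 0.765), -0.98 without it and 1.48 without replicate 2. For Id1 in Pre the log2 fold change was 1.39 (limma adjusted p = 0.0673), 0.35 without shScram Pre replicate 1 and 2.43 without replicate 2.

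The promoter of Id3 is given with its CAGAC or GTCTG letters in capitals, at chr4:136143572-136143871 (plus strand) of GRCm38.p6, and that of Id2 with its GGCGCC, at chr12:25096043-25096342 (minus strand), because both genes rose from Pre to MCE in both lines.
Id3 promoter: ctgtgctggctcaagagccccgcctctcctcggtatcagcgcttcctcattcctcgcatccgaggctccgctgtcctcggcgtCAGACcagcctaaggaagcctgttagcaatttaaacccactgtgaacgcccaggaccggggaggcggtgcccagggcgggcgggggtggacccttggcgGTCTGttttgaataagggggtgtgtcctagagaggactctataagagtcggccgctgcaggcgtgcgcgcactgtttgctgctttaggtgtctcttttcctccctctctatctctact
Id2 promoter: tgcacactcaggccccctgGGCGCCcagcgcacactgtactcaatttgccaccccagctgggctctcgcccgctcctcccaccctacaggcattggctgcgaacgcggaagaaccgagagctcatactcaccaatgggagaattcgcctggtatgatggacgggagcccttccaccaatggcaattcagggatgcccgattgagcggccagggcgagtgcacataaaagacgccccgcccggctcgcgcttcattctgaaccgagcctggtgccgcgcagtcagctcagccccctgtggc
Id3 held 2 matches to CAGAC, beginning 167 and 68 bases before the start, and Id2 held 1 GGCGCC beginning 231 bases before it. CAGAC stood in 49.6% of all windows and in 46.5% of the member windows.

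Genes known to respond to these signals, and other parts of the pathway, were taken from lists made with earlier results of these data known. Of 18 TGF-beta response genes, all tested, 10 were higher and 1 lower in shFto Pre, 10 and 2 at MCE, and 11 and 1 at Diff, with medians of 0.90, 1.25 and 0.89 on the log2 scale. That is 61.1%, 66.7% and 66.7% of the list called, against 28.2%, 17.8% and 21.2% of all genes tested. The lower genes, named after their values were seen, were Postn in Pre and at Diff (1435 and 1534 TPM in the shScram line and 411 and 421 TPM in shFto cells at Diff, limma adjusted p = 0.00143) and Fn1 and Snai2 at MCE. Acta2, smooth muscle actin, was at 307 and 453 TPM, 8.93 and 6.9 TPM and 23.3 and 30.5 TPM in shScram against 1049 and 959 TPM, 165 and 145 TPM and 82.6 and 83.9 TPM in shFto cells, 19.6-fold higher at MCE (limma adjusted p = 9.04e-06). Tagln, a contractile protein gene, was at 3.65 and 9.2 TPM, 1.36 and 0.741 TPM and 0.761 and 1.04 TPM in the shScram line and 98 and 98.8 TPM, 23 and 21.3 TPM and 6.52 and 7.43 TPM in shFto cells. Its shFto libraries lay above all shScram libraries of the same stage (limma adjusted p = 0.000181, 0.000144 and 0.00211).

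Pmepa1, which dampens receptor Smad activity, was at 7.67 and 11 TPM, 9.57 and 10.2 TPM and 13.9 and 13 TPM in the shScram line and 92.2 and 104 TPM, 92.8 and 106 TPM and 28.5 and 29.9 TPM in shFto cells, 10.5-fold higher in Pre (limma adjusted p = 1.6e-05). Ccn2, the connective tissue growth factor gene, was at 1.8 and 1.85 TPM in shScram Pre and 19.4 and 20.3 TPM in shFto Pre (adjusted p = 2.08e-05). Timp1, a metalloproteinase inhibitor, was at 83.8 and 75 TPM in the shScram line and 479 and 493 TPM in shFto cells at Diff, 6.12-fold higher (adjusted p = 0.00142). Of the fibroblast marker genes 3 of 8 were called higher and 4 lower in Pre, 3 and 3 at MCE, and 2 and 2 at Diff. The part of cell composition in the response genes was not tested.

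**Figure D5:**
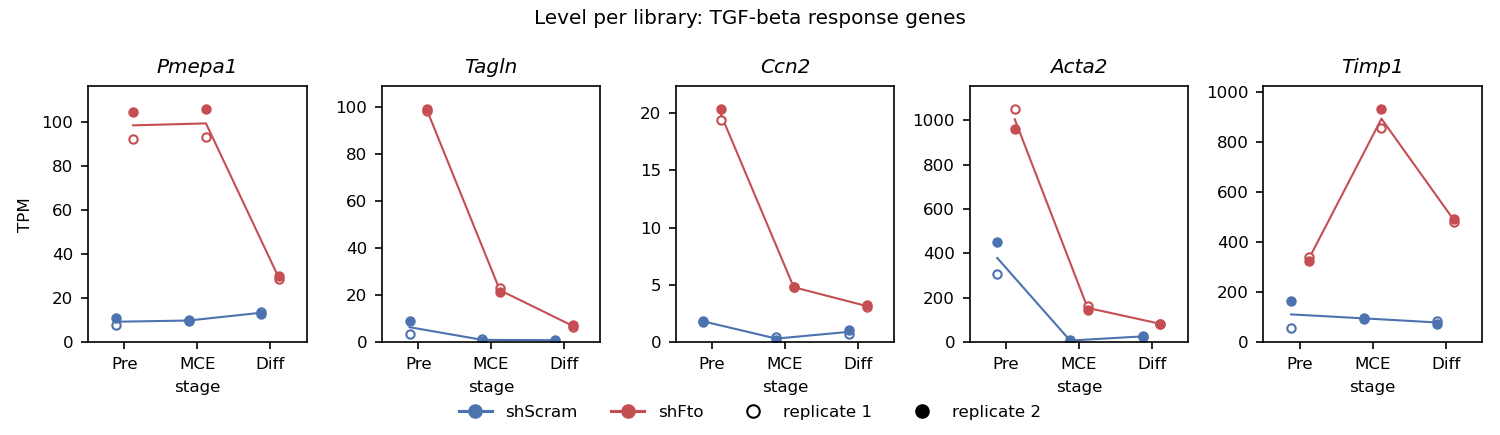
TPM of 5 TGF-beta response genes in each library, with replicate 1 as open and replicate 2 as filled circles, shScram in blue, shFto in red and lines through the group means, over Pre, MCE and Diff. In each panel and at each stage both shFto libraries lie above both shScram libraries, for example Acta2 at 165 and 145 TPM against 8.93 and 6.9 TPM at MCE. The 5 genes were picked from a list of 18 and do not stand for it. Of that list 1 gene was called lower in Pre, 2 at MCE and 1 at Diff.

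BMP response genes were mixed. Of 6 genes 4 were tested, and 1 was higher and 1 lower in shFto Pre, and 1 higher and 2 lower at MCE and at Diff. That is 50%, 75% and 75% of only 4 genes, against 28.2%, 17.8% and 21.2% of all genes tested. Atoh8, a BMP-induced bHLH gene, was at 37.9 and 33.4 TPM in the shScram line and 19.1 and 20.2 TPM in shFto cells at MCE and at 11.6 and 10.5 TPM and 3.34 and 5.17 TPM at Diff, 1.81-fold and 2.6-fold lower (limma adjusted p = 0.0408 and 0.00641). Runx2, a bone lineage factor, was at 5 and 8.05 TPM in the shScram line and 17.8 and 17.8 TPM in shFto cells at MCE and at 8.59 and 9.14 TPM and 16.8 and 18.9 TPM at Diff, higher in shFto cells (adjusted p = 0.00195 and 0.0102). Msx1 was higher in Pre (1.78 and 4.84 TPM against 10.0 and 11 TPM, adjusted p = 0.00717).

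Of 43 other pathway components 27 were tested, with 7 higher and 1 lower in shFto Pre, 10 and 1 at MCE, and 9 and 2 at Diff. That is 29.6%, 40.7% and 40.7% called, close in Pre to the 28.2% of all genes tested and above their 17.8% and 21.2% later. Bmper, a secreted BMP modulator, was 6.83-fold higher in Pre (3.61 and 5.52 TPM for shScram, 30.0 and 32.3 TPM in shFto cells, limma adjusted p = 5.79e-05) and 3.17-fold higher at MCE (adjusted p = 0.000348). Thbs1, the thrombospondin that can activate latent TGF-beta, was at 21.4 and 19.7 TPM in the shScram line and 61.7 and 54.6 TPM in shFto cells at MCE and at 74.9 and 85.5 TPM and 231 and 245 TPM at Diff, higher in shFto cells by 2.82-fold and 2.97-fold (adjusted p = 0.00012 and 5.91e-05). At Diff the BMP antagonist Chrdl1 was at 1.71 and 0.707 TPM for shScram and at 11.7 and 11.9 TPM for shFto libraries, higher in the latter (limma adjusted p = 0.000225). Twsg1, which binds BMPs together with chordin, was 2.06-fold lower in shFto Pre (adjusted p = 0.00248), and Bmp1, a procollagen and chordin protease, was 2.1-fold higher (adjusted p = 0.0118). Dcn, or decorin, a matrix proteoglycan that binds TGF-beta, was 2.99-fold higher at MCE (adjusted p = 0.02).

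The stage comparisons ask how the pathway moved as each line went through induction. From Pre to MCE 10 of 39 members rose and 9 fell in shScram cells, against 12.2% and 26.9% of all genes tested, and 13 rose and 7 fell in shFto cells, against 8.8% and 19.9%. From MCE to Diff 8 rose and 3 fell in shScram cells (20% and 5.22% of all genes), and 9 rose and 8 fell in shFto cells (20.2% and 6.48%). The median of all genes moved by -0.17 and -0.18 on the log2 scale from Pre to MCE and by 0.23 and 0.17 from MCE to Diff, in shScram and shFto cells in turn, and the stage values below should be read against those shifts. Median-ratio scaling, which removes them, gave 13 rises and 8 falls and 17 rises and 6 falls for the members from Pre to MCE, and 4 rises and 6 falls and 7 rises and 13 falls from MCE to Diff. It turned the balance of all called genes from 31.1% and 30.6% rising to 53.1% and 50.1%, and from 79.3% and 75.7% to 51.4% and 54.8%. No called member changed its sign. Comparisons of one line share the MCE libraries, so each is given with its own values only.

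From Pre to MCE Id1 rose 7.67-fold in shScram cells (log2 fold change 3.25 ± 0.51 SE, limma adjusted p = 0.0014), and in shFto cells it was at a 2.88-fold higher mean (adjusted p = 0.0524). Without shScram Pre replicate 1 or 2 the shScram value of Id1 was 2.21 or 4.28, and that of Id3 was 2.22 or 4.67 in place of 3.44. Id3 rose 8.12-fold in shScram (adjusted p = 0.0025) and 4.7-fold in shFto cells (adjusted p = 0.0243), and Id2 rose 2.81-fold and 6.95-fold (adjusted p = 0.000849 and 3.87e-05). From MCE to Diff Id2 fell in both lines, 7.5-fold in shScram and 9.14-fold in shFto cells (limma adjusted p = 9.08e-05 and 5.5e-05), and Id1 fell 4.15-fold in shFto cells (adjusted p = 0.0175). The Id genes other than Id4 hence had their highest levels at MCE in both lines. Atoh8 showed the same course, rising 13.6-fold and 18.4-fold into MCE in shScram and shFto cells (adjusted p = 1.45e-05 and 1.8e-05) and falling 3.22-fold and 4.62-fold afterwards (adjusted p = 0.0018 and 0.000522).

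Receptors and antagonists shared several stage changes between the lines. Tgfbr3 rose 2.79-fold in shScram and 2.9-fold in shFto cells from Pre to MCE (limma adjusted p = 4.14e-05 and 3.82e-05), Tgfbr2 rose 2.16-fold and 1.73-fold, and Acvr1b rose 2.62-fold and 1.92-fold. Acvrl1 fell 4.4-fold and 3.79-fold into MCE and rose 3.76-fold and 3.43-fold from there to Diff (limma adjusted p between 0.000804 and 0.00661). Fst rose 2.12-fold and 2.52-fold into MCE and 2.17-fold and 1.88-fold from MCE to Diff. Smad3 rose 1.49-fold and 1.62-fold into MCE and fell 1.43-fold and 1.72-fold afterwards, while Smad2 fell 2.15-fold and 1.71-fold into MCE (adjusted p = 0.000467 and 0.00361). Tgfb3 fell 1.7-fold and 2.78-fold into MCE. Of these calls, those for Acvr1b and Id3 into MCE and for Id1 from MCE to Diff in shFto cells were lost whichever library of the comparison was left out. Those for Fst (shFto MCE replicate 1 or shFto Diff replicate 2), Acvrl1 (shScram Diff replicate 2) and Smad3 (either library of shScram MCE, shScram Diff or shFto MCE, and shScram MCE replicate 1 for the rise) were lost without the libraries named.

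Without a library of the comparison the stage counts moved, and the share of all genes called in those fits is not given. From MCE to Diff in shScram cells the count of 11 became 7 or 5 without shScram MCE replicate 1 or 2, 6 or 4 without shScram Diff replicate 1 or 2, and 7 without either shFto MCE library, whereas it became 22 without either shScram Pre library. In shFto cells the count of 17 became 10 or 9 without shFto MCE replicate 1 or 2 and 11 or 9 without shFto Diff replicate 1 or 2. From Pre to MCE in shScram cells 1 member was called when only the 4 libraries of that comparison were fitted, where 17 had an unadjusted p under 0.05.

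A direct test of the line by stage difference asks whether the knockdown effect changed between stages. Between Pre and MCE it was called for 5 of 39 members, against 5.11% of all genes tested, and between MCE and Diff for 3, against 2.49%. Both counts include Inhbb, which was tested only because of shFto libraries. Inhba rose into MCE in shFto cells (0.68 on the log2 scale) while it fell in shScram cells (-0.88), a difference of 1.56 ± 0.21 SE (limma adjusted p = 0.00459). Grem1 likewise rose in shFto (0.69) and fell in shScram cells (-1.35), differing by 2.04 ± 0.18 (adjusted p = 0.000842), and so did Ltbp1 (0.47 and -0.79, difference 1.26, adjusted p = 0.00472). Tgfb2 and Inhbb fell into MCE in shFto cells (-1.64 and -2.88), against 0.00 and -0.02 in shScram cells. The differences were -1.65 for Tgfb2 (limma adjusted p = 0.0145) and -2.86 for Inhbb, the latter a description only.

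Between MCE and Diff the difference was called for Inhba (-1.39, limma adjusted p = 0.0121), Fstl1 (-1.04, adjusted p = 0.0222) and Inhbb (1.69, a description only). Inhba fell by 1.42 in shFto cells from MCE to Diff and was at -0.03 in shScram cells, and Inhbb rose by 1.71 in shFto cells from under 1 TPM. For Fstl1 the log2 fold change from MCE to Diff was -0.86 in shFto cells and 0.17, in the other direction and not called, in shScram cells. The calls for Grem1, Inhba, Inhbb and Ltbp1 between Pre and MCE and for Inhbb between MCE and Diff held whichever library was left out, but the latter was lost with a pseudocount of 0.1. The Inhba call between MCE and Diff was lost with quantile normalization and in 5 of the 12 fits that left out 1 library. That for Tgfb2 was lost without shScram MCE replicate 1, shFto Pre replicate 2 or shFto MCE replicate 2, and that for Fstl1 when any MCE or Diff library was left out. Between MCE and Diff, the count of 3 became 1 without shScram MCE replicate 1, shScram Diff replicate 1, shFto MCE replicate 2 or either shFto Diff library, and 15 without either shScram Pre library. Between Pre and MCE the count of 5 went up without either shScram Pre library. Shares of all genes called in such fits are not given, so these counts are no result about the members.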

How the data were processed

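The deposited table gives gene-level TPM for 12 libraries in 6 groups, as named by the titles of the samples. The paper's methods describe fragmented total RNA, of which short fragments were size-selected and poly(A)-tailed. They name rhein-treated cells there and do not say whether the shScram and shFto libraries were made in this way. The tools that the authors list in their processing notes are Trim Galore 0.6.5 for trimming, HISAT2 2.1.0 for alignment to the GRCm38 build, StringTie 2.1.4 for transcript abundance and DESeq2 1.30.1. Read counts were not used here, so the depth of each library is unknown. Each library held 20853 to 24018 genes above 0.

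TPM values were tested as log2(TPM + 1) for the 15968 of 55487 genes with at least 1 TPM in at least 2 libraries. A model with 1 mean per group was fitted to all 12 libraries (6 residual degrees of freedom) with limma 3.58.1 in R 4.3.3, using empirical Bayes with a trend, and p-values were adjusted by Benjamini-Hochberg over all genes tested. The contrasts were shFto against shScram at each stage, successive stages within each line and the line by stage differences. The script was tested on simulated data. The 21 alternatives comprised 12 that left out 1 library each and 9 of pseudocount, filter, scaling, libraries, trend, replicate block and call rule.

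The members and lists were chosen with earlier results of these data known. Values per library are printed for members called in a knockdown or stage contrast with a group mean of at least 5 TPM, and other members are given by range or count. From each list up to 3 called genes per contrast, those of the highest absolute log2 fold change, are named. Promoter windows came from RefSeq on GRCm38.p6. Strand use in counting is not given in the sources used here, so members that overlap another gene are uncertain. Replicate numbers were not used to pair the libraries in the main fit, and whether they mark a shared batch is not known. Some genes of the lists are counted but not reported by name here.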

Additional observations from a re-analysis of the deposited data

Results flagged for a closer look

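The values below were picked out because the knockdown effect differed between stages by a direct test, the line by stage term of the limma fit, with adjusted p over 15968 genes. Between Pre and MCE the difference in log2 fold change was -1.65 for Tgfb2 (adjusted p = 0.0145), 1.56 for Inhba (adjusted p = 0.00459), -2.86 for Inhbb, 2.04 for Grem1 (adjusted p = 0.000842) and 1.26 for Ltbp1 (adjusted p = 0.00472). Between MCE and Diff it was -1.39 for Inhba (adjusted p = 0.0121), 1.69 for Inhbb and -1.04 for Fstl1 (adjusted p = 0.0222). Inhbb was at 0 or near it in every shScram library and was tested only because of shFto libraries. Its values therefore describe shFto cells and no p is given for them. Its MCE to Diff difference was not called with a pseudocount of 0.1. What these differences come from was not tested.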

How the results depend on the processing

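The 139 called member values kept their sign under all 21 alternatives. They fell short of the threshold in 5 cases with a pseudocount of 0.1, 24 without a filter, 8 with median-ratio scaling, 8 with quantile normalization, 2 without a trend, 43 when only the compared libraries were fitted, 47 with the study's thresholds (unadjusted p under 0.05 and a fold over 2), and 0 to 31 when 1 library was left out. With a mean TPM of at least 5 as the filter, 118 were tested and 0 were lost.

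Counts of called members that moved by over 1.5 times were as follows, and the cause was not tested beyond what each setting changes. When the fit held only the libraries compared, the knockdown count in Pre went from 24 to 0, Pre to MCE in shScram from 19 to 1, MCE to Diff from 11 to 17 in shScram and from 17 to 26 in shFto cells, and the line by stage count for Diff against MCE from 3 to 15. In that fit Fto in Pre kept its log2 fold change of -3.11 but had an adjusted p of 0.109, the lowest that any gene reached. With the study's thresholds, MCE to Diff gave 7 in shScram and 9 in shFto cells, Pre to MCE in shFto cells 13 in place of 20, and line by stage 10 in place of 5 for MCE against Pre and 7 in place of 3 for Diff against MCE. Without a filter MCE to Diff in shScram cells gave 7 and line by stage for Diff against MCE 5, and the latter was 7 with median-ratio scaling and 5 with quantile normalization.

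Leaving out 1 library gave 14 to 29 members for the knockdown in Pre, 13 to 25 at MCE and 14 to 30 at Diff. It gave 17 to 26 from Pre to MCE and 4 to 22 from MCE to Diff in shScram cells, 14 to 27 and 9 to 24 in shFto cells, and 4 to 27 and 1 to 15 for the line by stage differences. The lone library left in a group is then assumed to vary like the other groups. Shares of all genes called in these fits are not given, so the ranges are no result about the members.

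Values that were not called and turned their sign were all near 0 or rested on shScram Pre. In Pre, Tgfb2 (-0.09) ranged from -0.33 to 0.15 with 1 library left out, Bmpr2 (-0.37) from -0.78 to 0.039, Acvr2a (0.17) from -0.20 to 0.55, Smad1 (0.09) from -0.029 to 0.22 and Id3 (0.25) from -0.98 to 1.48. Tgfb2 was 0.04 without shScram Pre replicate 1. At MCE, Bmpr1a (0.10) ranged from -0.052 to 0.24 and Smad5 (0.05) from -0.055 to 0.15. Quantile normalization gave -0.071 for Smad1 and -0.040 for Smad4 (0.08) in Pre and -0.031 for Bmpr1a and -0.049 for Smad5 at MCE, and median-ratio scaling gave -0.016 for Smad5.

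With the replicate number as a block the counts were 24, 20 and 19 for the knockdown in Pre, at MCE and at Diff, 18 and 11 for the stages in shScram cells, 20 and 15 in shFto cells, and 5 and 3 for line by stage. The deviations of same-numbered libraries correlated between -0.29 and 0.17 over 15 pairs of groups, with 2 over 0.1. These correlations cannot decide whether libraries shared a batch, since a batch numbered differently between groups would give negative values. With TPM alone and 2 libraries a group, low genes and small changes are the least certain.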

Other observations

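Of the TGF-beta response genes 3 rose and 7 fell from Pre to MCE in shScram cells and 5 rose and 9 fell in shFto cells, and from MCE to Diff 9 rose and 3 fell and 5 rose and 5 fell. Of all genes tested 12.2% rose and 26.9% fell into MCE in shScram cells and 8.8% and 19.9% in shFto cells, and 20% and 5.22% and 20.2% and 6.48% from MCE to Diff. With median-ratio scaling, applied to the lists after the data were seen, the response genes gave 4 rises and 6 falls and 5 and 9 into MCE, and 8 and 3 and 3 and 8 to Diff. Acta2 fell 48-fold into MCE in shScram cells (limma adjusted p = 5.82e-07) and 6.48-fold in shFto cells (adjusted p = 3.02e-05). Snai1, a repressor of epithelial genes, rose 5.55-fold and 4.6-fold over the same step (adjusted p = 0.000804 and 0.00223). From MCE to Diff Postn and Lox, a matricellular protein and a collagen cross-linking enzyme, rose 3.92-fold and 3.31-fold in shScram cells (adjusted p = 0.00118 and 0.000731), and Pmepa1 fell 3.39-fold in shFto cells (adjusted p = 0.000205). Among the other pathway components 3 rose and 8 fell into MCE in shScram cells and 7 rose and 8 fell in shFto cells, and 5 rose and 0 fell and 6 rose and 2 fell from MCE to Diff. With median-ratio scaling these became 5 and 7, 9 and 5, 3 and 1, and 5 and 5. Thbs1 fell 11-fold and 6.67-fold into MCE (adjusted p = 5.82e-07 and 2.41e-06) and rose 3.89-fold and 4.09-fold to Diff (adjusted p = 4.85e-05 and 3.58e-05), in shScram and shFto cells in turn. Msx1, a homeobox gene that BMP signals induce, rose 8.79-fold and 2.05-fold into MCE (adjusted p = 0.000102 and 0.0315). These steps share libraries within a line, and no cause for them was tested.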
